A study of Mus musculus with 8 samples.

Results

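Expression of 32 genes of protein folding and stress signalling in the endoplasmic reticulum was measured in the hippocampus of Tg6799 mice and their littermates. The genes were chosen by name, with earlier results of these data known. They were grouped by role into 9 chaperones and cochaperones, 2 lectin chaperones, 4 disulfide isomerases and 7 genes of degradation. The others were 3 sensors, 3 stress transcription factors and 4 targets of the ATF4 arm. All 32 were found among the 18193 genes on the arrays. They had 75 probe sets annotated to their symbol alone, and of these the brightest on average was taken to represent the gene.

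The study hybridised 8 Affymetrix mouse genome arrays, 1 colour each, with 2 arrays in each of 4 groups of female mice. LM4m and LM8m are littermate controls at 4 and 8 months of age, and MT4m and MT8m are Tg6799 mutants at the same ages, the earlier age being called early symptomatic and the later one late symptomatic. Tg6799 is a model of Alzheimer's disease that expresses its transgenes from the Thy1 promoter, which is active in neurons, so they are not under the control of the promoters of the genes they come from. The labels give Tg6799 as the strain of every array, littermates included, and no background strain. The design text counts 4 MT and 2 LM mice at each age for this screen, against 2 arrays per group, and no label says whether an array held RNA of 1 mouse or of a pool. All p-values therefore measure only the spread between these RNA samples, which may be technical. Values are log2 expression values after robust multi-array averaging (RMA), a difference of 1 being a doubling, and the number of arrays limits their precision.

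The endoplasmic reticulum is the compartment in which secreted and membrane proteins are folded, given disulfide bonds and sugar chains, and checked before export. When unfolded proteins build up there, the sensors Ern1 (IRE1), Eif2ak3 (PERK) and Atf6 start the unfolded protein response. Ern1 splices the mRNA of Xbp1, Atf6 is cut to release a transcription factor, and Eif2ak3 slows translation while that of Atf4 is favoured. Xbp1 and Atf6 raise chaperone and degradation genes, and Atf4 raises genes of amino acid supply and, under prolonged stress, Ddit3 (CHOP). In neurons, which make large amounts of membrane and synaptic protein, this response has been studied in connection with Alzheimer's disease and ageing.

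Several of the chaperone genes carry the endoplasmic reticulum stress element (ERSE) in their promoters, and stretches around it are shown because the response is known to act on chaperone genes through this element. The element was searched as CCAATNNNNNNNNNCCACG on both strands from 250 bases before to 50 bases after the start of transcription, in RefSeq promoters of build GRCm38.p6. A window was given for 28 of the 32 genes, and not for Hyou1, Manf, Atf6 and Derl1. Of these 28 genes, 9 (32.1%) held the element, against 0.137% of the 27025 genes in the table. As the genes were chosen by name for this response, these shares are a description and no test. The stretches are written 5′ to 3′ on the strand of the gene, with capitals marking the element, which in Creld2, Calr and the second element of Hsp90b1 lies on the opposite strand and reads CGTGG first. They belong to Hspa5 at chr2:34772015-34772053 (plus strand), Creld2 at chr15:88819510-88819548 (plus), Calr at chr8:84847065-84847103 (minus), Pdia6 at chr12:17266481-17266519 (plus), Canx at chr11:50325790-50325828 (minus) and Hsp90b1, which holds 2 elements, at chr10:86705523-86705666 (minus). Those of the other 3 genes with the element, Dnajc3, Syvn1 and Derl3, are not printed.
Hspa5: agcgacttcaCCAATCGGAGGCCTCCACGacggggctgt
Creld2: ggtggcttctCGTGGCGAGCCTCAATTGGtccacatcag
Calr: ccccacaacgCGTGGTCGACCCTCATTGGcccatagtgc
Pdia6: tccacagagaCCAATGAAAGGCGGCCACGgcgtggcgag
Canx: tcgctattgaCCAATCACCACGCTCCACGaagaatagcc
Hsp90b1: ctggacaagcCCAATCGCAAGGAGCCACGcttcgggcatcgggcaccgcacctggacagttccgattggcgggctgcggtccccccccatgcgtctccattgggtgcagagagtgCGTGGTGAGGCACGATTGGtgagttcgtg

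Hippocampal neuron genes were high on every array (Camk2a from 11.1 to 11.4, Neurod6 from 8.18 to 8.74). Thy1, the gene whose promoter drives the transgenes, was between 11.73 and 11.82 on 3 of the 4 MT arrays and between 9.53 and 9.96 on the LM arrays. The library labelled MT8m replicate 1, by contrast, read 9.90 for Thy1, 1.75 for Cst7, a gene of microglia near plaques, and 7.17 for Gfap. All these values were within or below the LM range, so by these genes the library goes against its label. Its Ttr, a choroid plexus gene, was 10.69, against 10.66 to 10.97 on the other MT arrays and 12.43 to 12.83 on the LM arrays. Its mean of 9 choroid plexus genes was 3.77, against 3.54 to 3.89 on the other MT arrays and 5.53 to 6.70 on the LM arrays. By choroid plexus genes the library thus goes with its label. Pituitary hormone genes differed with age: the mean of 7 such genes was 4.54 and 5.08 in LM4m, 3.98 and 2.29 in MT4m, 2.32 and 2.90 in LM8m and 2.45 and 2.87 in MT8m. Of these genes, Gh, Prl, Pomc and Cga were high on 3 of the 4 arrays of 4 months and low on MT4m replicate 2, whereas Tshb, Lhb and Fshb lay between 1.37 and 2.34 on every array. LM4m replicate 1 had the largest excess of 3′ over 5′ control probe sets, a sign of RNA quality: 2.19 for Gapdh, against 0.657 to 1.42 on the other arrays, and 2.96 for Actb, against 1.67 to 2.43. The direction of every genotype difference here follows the sample records. It is opposite to that in the study's published gene tables, where the LM arrays appear under the mutant name and the MT arrays under the control name.

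Between the 2 ages, 8 and 4 months, most of the 32 genes had lower values at the later one, and none passed a test adjusted over all genes. Averaged over genotypes, 27 of the 32 genes had a negative difference (8 minus 4 months), with a median of -0.17 on the log2 scale against -0.004 over all genes. No gene of the 18193 passed an adjusted p of 0.05 (0% of genes, and 0 of the 32). At an unadjusted p under 0.05, 13 of the 32 genes were lower, against 3.98% of all genes, and 0 of the 32 were higher, against 2.49%. The 13 were 6 of the 9 chaperones, 1 of the 2 lectin chaperones, 2 of the 4 isomerases, 1 of the 7 degradation genes, 0 of the 3 sensors, 1 of the 3 transcription factors and 2 of the 4 ATF4 targets, and the difference between roles was not tested. On the arrays themselves, 8 of the 32 genes (Hspa5, Sdf2l1, Manf, Creld2, Dnajb11, Calr, Pdia4 and Xbp1) had all 4 arrays of 8 months below all 4 of 4 months, against 2.44% of all genes, and 0 of the 32 had them above, against 1.37%. Among genes with a mean above 4.5, the shares were 12 of 28 lower, against 5.57%, and 8 of 28 below without overlap, against 3.49%. By limma's p-value, Sdf2l1 ranked 4 among the 18193 genes, and 5 of the 32 were among the first 100 in that order. The mean over the 32 genes was 6.55 and 6.54 in LM4m, 6.45 and 6.48 in MT4m, 6.19 and 6.34 in LM8m, and 6.27 on both MT8m arrays. Within a group, arrays varied by 0.0558 (SD) in this mean. In bulk tissue, fewer cells of a type and less RNA per cell cannot be told apart.

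**Figure D1:**
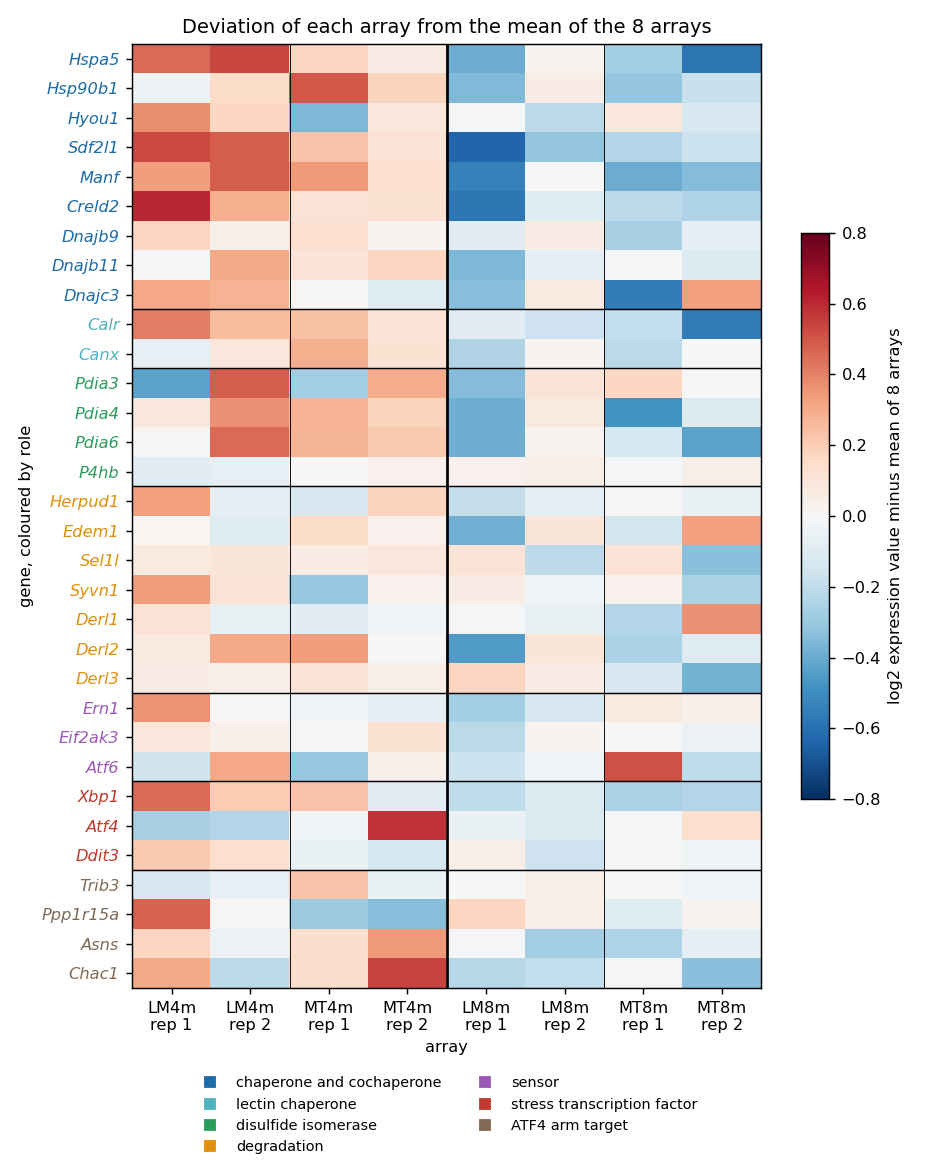
Deviation of each array from the mean of the 8 arrays, on the log2 scale, for the 32 genes (rows, grouped and coloured by role) on the 8 arrays (columns). The thick line parts 4 from 8 months, and for 8 genes every array of 8 months was below every array of 4 months.

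The chaperones of the lumen showed the largest age differences. All 9 had negative values, with a median of -0.39, and 6 of them were lower at an unadjusted p under 0.05. Hspa5 (BiP), the main Hsp70 chaperone of the lumen, which also holds the sensors inactive, read 9.71 and 9.79 in LM4m, 9.43 and 9.32 in MT4m, 8.86 and 9.28 in LM8m, and 8.98 and 8.68 in MT8m. Its averaged difference was -0.61 ± 0.12 (SE; 1.53-fold lower; unadjusted p = 0.000898, limma adjusted p = 0.459). Both LM4m arrays were the highest of the 8, and the highest array of 8 months lay just under the lowest of 4 months. The dimmer Hspa5 probe sets gave age differences of -0.57 ± 0.13 and -0.23 ± 0.10. Sdf2l1, a partner of the lumenal DnaJ proteins, read 5.23 and 5.19 in LM4m, 4.93 and 4.82 in MT4m, 4.07 and 4.39 in LM8m, and 4.47 and 4.53 in MT8m. Its difference was -0.67 ± 0.10 (1.60-fold lower; unadjusted p = 0.000111, limma adjusted p = 0.393). No array of 8 months was above 4.53 and no array of 4 months below 4.82, and the 2 LM groups were at the extremes.

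Manf, a small secreted protein with neurotrophic activity that is induced by such stress, read 7.51 and 7.66 in LM4m, 7.52 and 7.31 in MT4m, 6.64 and 7.18 in LM8m, and 6.78 and 6.83 in MT8m. The difference for Manf was -0.64 ± 0.13 (1.56-fold lower; unadjusted p = 0.000956, limma adjusted p = 0.459). Its ages did not overlap, and LM8m replicate 2 came nearest to the younger arrays. Creld2, a stress-induced protein with disulfide isomerase activity, read 5.72 and 5.41 in LM4m, 5.23 and 5.24 in MT4m, 4.54 and 5.02 in LM8m, and 4.91 and 4.87 in MT8m. The difference for Creld2 was -0.56 ± 0.13 (1.48-fold lower; unadjusted p = 0.00193, limma adjusted p = 0.55). Again the ages did not overlap, and the MT arrays of each age agreed closely. Dnajb11, an Hsp40 cochaperone of Hspa5, read 6.4 and 6.71 in LM4m, 6.51 and 6.58 in MT4m, 6.05 and 6.33 in LM8m, and 6.39 and 6.30 in MT8m. Its difference of -0.28 ± 0.11 (unadjusted p = 0.0329, limma adjusted p = 0.729) rested on ages that only just did not overlap.

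Hsp90b1 (GRP94), the lumenal Hsp90, was the brightest on MT4m replicate 1: it read 8.68 and 8.87 in LM4m, 9.22 and 8.90 in MT4m, 8.37 and 8.78 in LM8m, and 8.41 and 8.54 in MT8m. Its difference was -0.39 ± 0.13 (unadjusted p = 0.0144, limma adjusted p = 0.668), and the ages overlapped through LM8m replicate 2. A second Hsp90b1 probe set, with a mean of 7.58, gave 0.04 ± 0.20, so the 2 probe sets disagreed. With the pituitary genes as a covariate the value of Hsp90b1 was -0.04. The other chaperones were not lower at an unadjusted p under 0.05. They are Dnajb9 (-0.18 ± 0.09), a cochaperone that Ern1 signalling induces, Dnajc3 (-0.25 ± 0.19), an Hsp40 cochaperone also known as an inhibitor of eIF2 alpha kinases, and Hyou1 (-0.14 ± 0.13), a large Hsp70-like protein that exchanges nucleotide on Hspa5. Dnajc3 varied most, between 6.29 and 7.18 within MT8m alone.

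**Figure D2:**
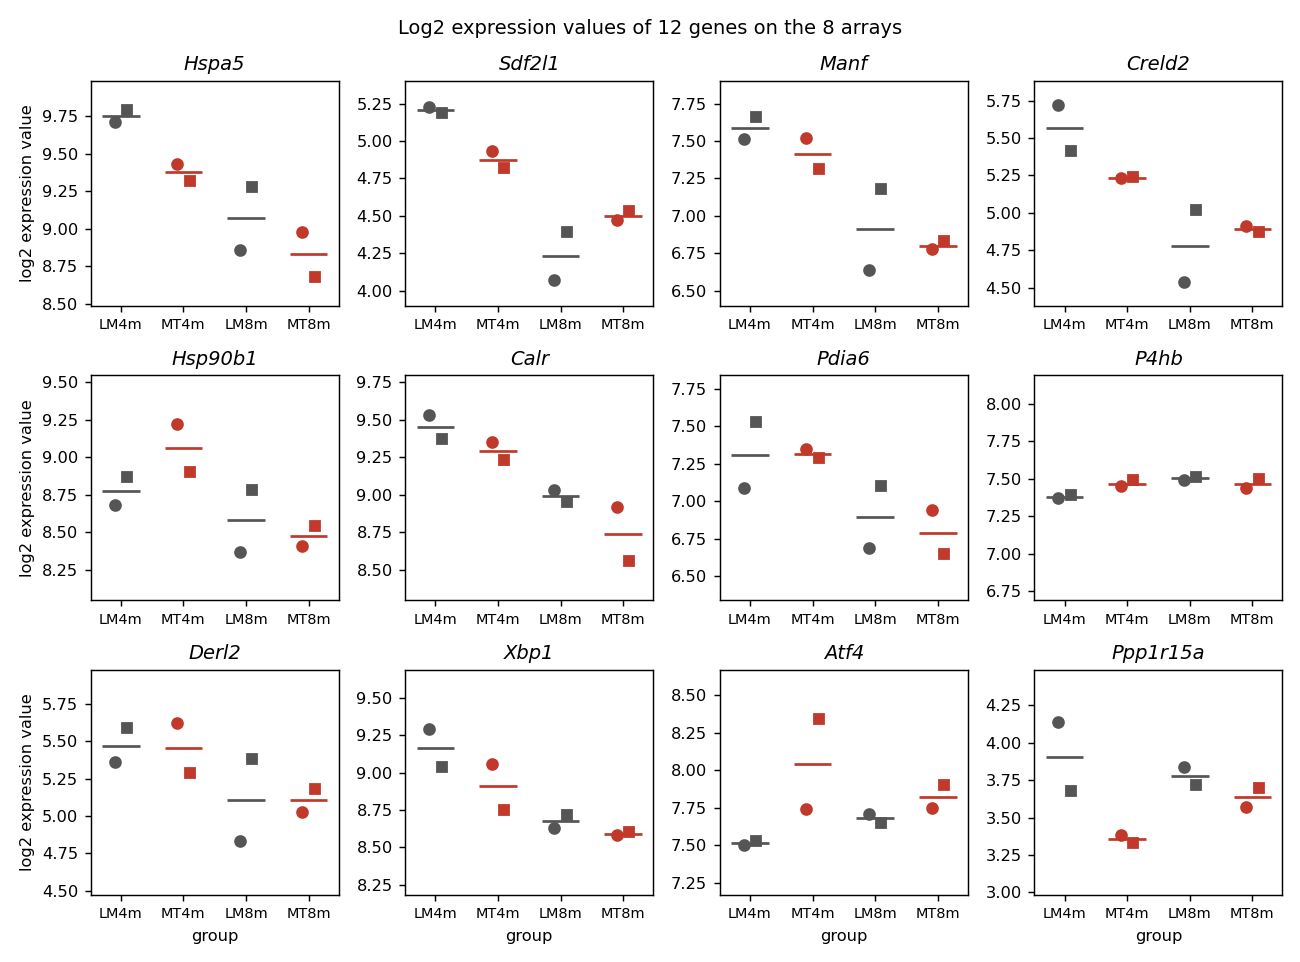
Log2 expression values of 12 genes in the 4 groups (grey, LM; red, MT; circle, replicate 1; square, replicate 2; bar, group mean), every panel spanning 1.5 log2 units. Sdf2l1 lay between 4.82 and 5.23 at 4 months and between 4.07 and 4.53 at 8 months, whereas P4hb stayed between 7.37 and 7.51.

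The lectin chaperones bind sugar chains on new glycoproteins and hold them until they are folded. Calr (calreticulin), the soluble one, read 9.53 and 9.37 in LM4m, 9.35 and 9.23 in MT4m, 9.03 and 8.95 in LM8m, and 8.92 and 8.56 in MT8m. It differed by -0.51 ± 0.11 (1.42-fold lower; unadjusted p = 0.0013, limma adjusted p = 0.512). The ages did not overlap, and all 3 Calr probe sets gave alike differences of -0.51, -0.46 and -0.53. Canx (calnexin), its membrane-bound relative, ranged from 9.11 to 9.64 and differed by -0.22 ± 0.11 (95% interval from -0.47 to 0.03), with overlapping ages.

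Disulfide isomerases form and rearrange the disulfide bonds of folding proteins, and they split into 2 that were lower and 2 that were not. Pdia6 (P5) read 7.09 and 7.53 in LM4m, 7.35 and 7.29 in MT4m, 6.69 and 7.10 in LM8m, and 6.94 and 6.65 in MT8m. It differed by -0.47 ± 0.14 (1.39-fold lower; unadjusted p = 0.00926, limma adjusted p = 0.647), and LM8m replicate 2 lay level with LM4m replicate 1. Pdia4 (ERp72) read 5.98 and 6.26 in LM4m, 6.17 and 6.07 in MT4m, 5.5 and 5.97 in LM8m, and 5.41 and 5.78 in MT8m. Its difference of -0.45 ± 0.14 (unadjusted p = 0.0108, limma adjusted p = 0.659) came with ages that did not overlap but lay close, again through LM8m replicate 2. P4hb, the founding member of the family, had values from 7.37 to 7.51 and a difference of 0.06 ± 0.08 (95% interval from -0.13 to 0.25). Pdia3 (ERp57), which works with Calr and Canx, ranged from 6.01 to 6.92 within LM4m alone, and its difference of -0.04 ± 0.22 was not resolved (95% interval from -0.54 to 0.46).

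Degradation genes, whose products recognise misfolded proteins and return them to the cytosol for the proteasome, had a median of -0.13, and 1 of 7 was lower at an unadjusted p under 0.05. That gene was Derl2, a membrane protein of the retrotranslocation machinery, which read 5.36 and 5.59 in LM4m, 5.62 and 5.29 in MT4m, 4.83 and 5.38 in LM8m, and 5.03 and 5.18 in MT8m. It differed by -0.36 ± 0.14 (unadjusted p = 0.0361, limma adjusted p = 0.738), the ages overlapped, and a second Derl2 probe set gave -0.07 ± 0.12. The value of Derl2 was 0.03 with the pituitary genes as a covariate. Its relatives Derl1 (0.03 ± 0.13) and Derl3 (-0.13 ± 0.09), the ubiquitin ligase Syvn1 (HRD1; -0.09 ± 0.12), its partner Sel1l (-0.17 ± 0.12), the mannosidase-like lectin Edem1 (-0.05 ± 0.14) and the membrane protein Herpud1 (-0.16 ± 0.12) were not lower by that test. The other 3 Derl1 probe sets, all dimmer, gave -0.03, -0.22 and -0.49 (unadjusted p = 0.0159, limma adjusted p = 0.669, for the last), so the probe sets disagreed. They also disagreed for Sel1l, where every dimmer probe set was positive (0.02 to 0.14), and for Syvn1, where a second gave 0.10 ± 0.14. The second probe sets of Herpud1 (-0.13) and Edem1 (-0.01) had the sign of the brightest.

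The 3 sensors had differences between -0.14 and 0.06, and 0 of 3 were lower at an unadjusted p under 0.05. Ern1, the kinase and endoribonuclease with the largest value of these, read 4.93 and 4.58 in LM4m, 4.55 and 4.5 in MT4m, 4.30 and 4.45 in LM8m, and 4.64 and 4.61 in MT8m. It differed by -0.14 ± 0.10 (95% interval from -0.38 to 0.10), and the ages overlapped because the MT8m arrays were above the MT4m arrays. Eif2ak3 differed by -0.12 ± 0.09 and Atf6 by 0.06 ± 0.18, the latter with MT8m arrays as far apart as 6.75 and 6.04.

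Of the stress transcription factors, Xbp1 was lower with age and the other 2 were not. Xbp1, which raises chaperone and degradation genes once spliced, read 9.29 and 9.04 in LM4m, 9.06 and 8.75 in MT4m, 8.63 and 8.72 in LM8m, and 8.58 and 8.60 in MT8m. It differed by -0.41 ± 0.11 (1.32-fold lower; unadjusted p = 0.00475, limma adjusted p = 0.606), with no overlap between ages, MT4m replicate 2 being nearest to the older arrays. Its 4 probe sets gave -0.41, -0.44, -0.45 and, for the dim one, -0.10. The values do not separate spliced from unspliced Xbp1 mRNA. Ddit3, a factor tied to cell death under prolonged stress, differed by -0.07 ± 0.09 (95% interval from -0.28 to 0.14), and Atf4, the factor of the PERK arm, by -0.03 ± 0.14 (95% interval from -0.34 to 0.28).

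The targets of Atf4 were mixed, with 2 of 4 lower at an unadjusted p under 0.05. Asns, which makes asparagine, read 7.17 and 6.96 in LM4m, 7.14 and 7.34 in MT4m, 6.98 and 6.72 in LM8m, and 6.75 and 6.92 in MT8m. It differed by -0.31 ± 0.11 (unadjusted p = 0.0208, limma adjusted p = 0.694), LM8m replicate 1 overlapping LM4m replicate 2, and a second probe set gave -0.15 ± 0.12. Chac1, which breaks down glutathione, read 4.30 and 3.78 in LM4m, 4.14 and 4.54 in MT4m, 3.77 and 3.80 in LM8m, and 3.99 and 3.66 in MT8m. It differed by -0.39 ± 0.15 (unadjusted p = 0.0305, limma adjusted p = 0.723), with LM4m replicate 2 as low as the older arrays. Trib3, a pseudokinase that restrains this arm, was dim (2.18 to 2.54) and differed by 0.02 ± 0.09. Ppp1r15a (GADD34), which directs a phosphatase to eIF2 alpha and so restores translation, differed by 0.08 ± 0.12.

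**Figure D3:**
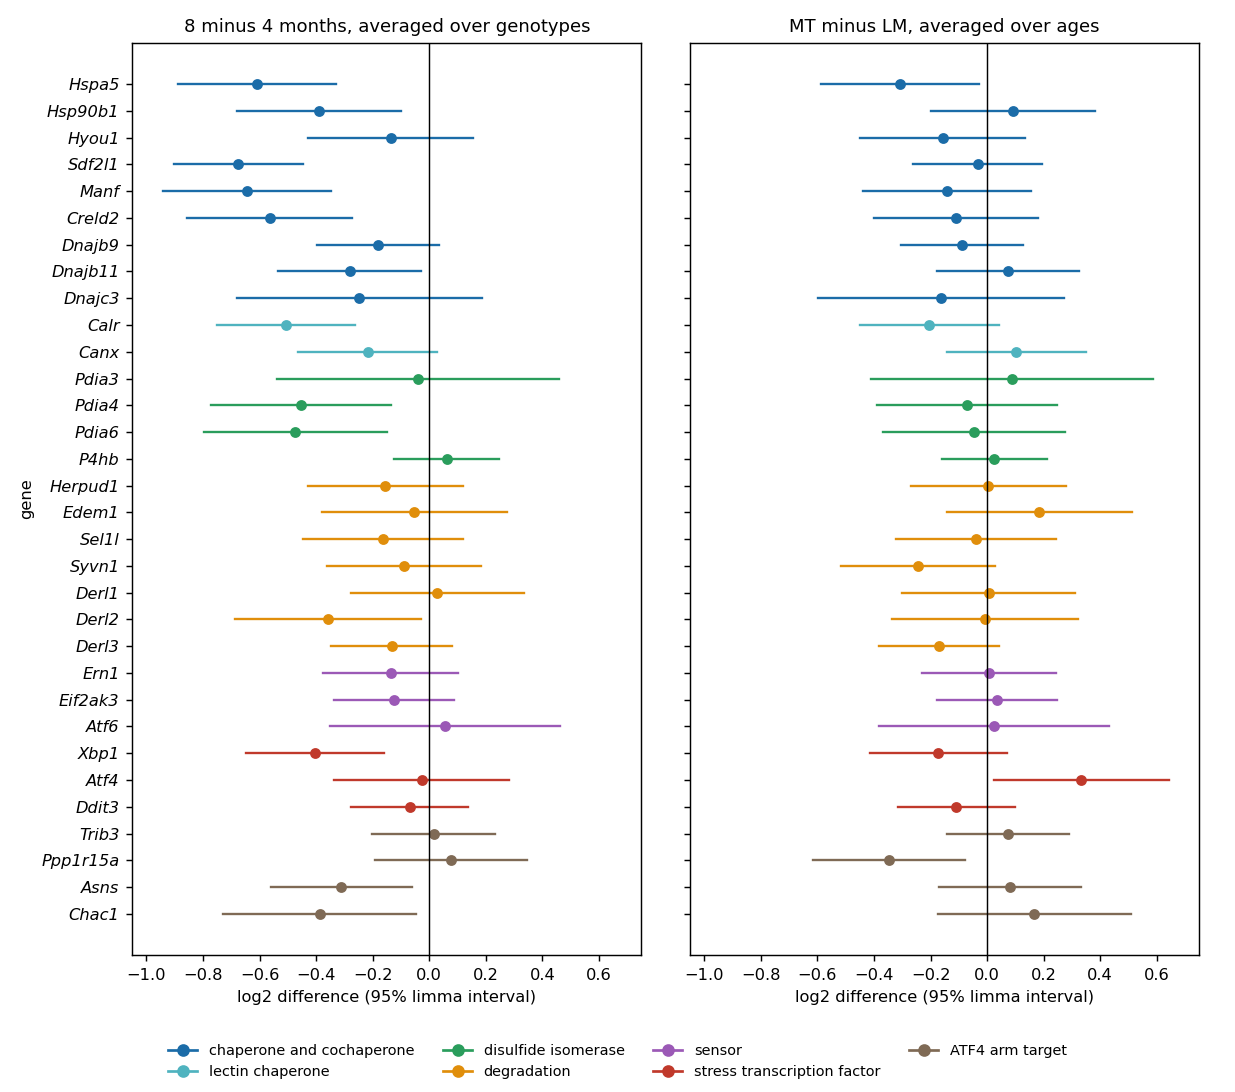
Log2 differences of the 32 genes with 95% intervals from limma, 8 minus 4 months averaged over genotypes on the left and MT minus LM averaged over ages on the right, coloured by role. On the left 13 intervals lie wholly below 0 and none above, and on the right 2 lie below and 1 above.

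The age difference was then taken in each genotype, which compares separate sets of arrays. In LM the median over the 32 genes was -0.22, and 8 of 32 (Hspa5, Sdf2l1, Manf, Creld2, Dnajb11, Calr, Ern1 and Xbp1) were lower at an unadjusted p under 0.05, against 2.45% of all genes. None of the 32 was higher (1.03% of all genes), and 0% of genes passed an adjusted p of 0.05. In MT the median was -0.21, and 10 of 32 (Hspa5, Hsp90b1, Sdf2l1, Manf, Calr, Pdia4, Pdia6, Derl3, Asns and Chac1) were lower, against 2.8% of all genes. In this comparison 0 of the 32 were higher, against 2.98%, and 0% of genes passed an adjusted p of 0.05 by limma. Hspa5, Sdf2l1, Manf and Calr were lower at that level in both genotypes (4 of 32, against 0.599% of all genes), and 20 of 32 were negative in both, against 30% of all genes. P4hb (0.12 in LM and 0.0006, near 0, in MT) was the 1 gene of the 32 that was positive in both, against 26% of all genes. Without the library labelled MT8m replicate 1, 7 of 32 (Hspa5, Manf, Calr, Pdia6, Sel1l, Derl3 and Chac1) were lower in MT, against 3.38% of all genes, and 1 (Derl1, 0.42) was higher, against 4.72%. Hsp90b1 (-0.51), Sdf2l1 (-0.34), Pdia4 (-0.34) and Asns (-0.32) were then no longer lower in MT by that test. MT8m is then 1 array, whose spread is assumed to be that of the other groups.

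**Figure D4:**
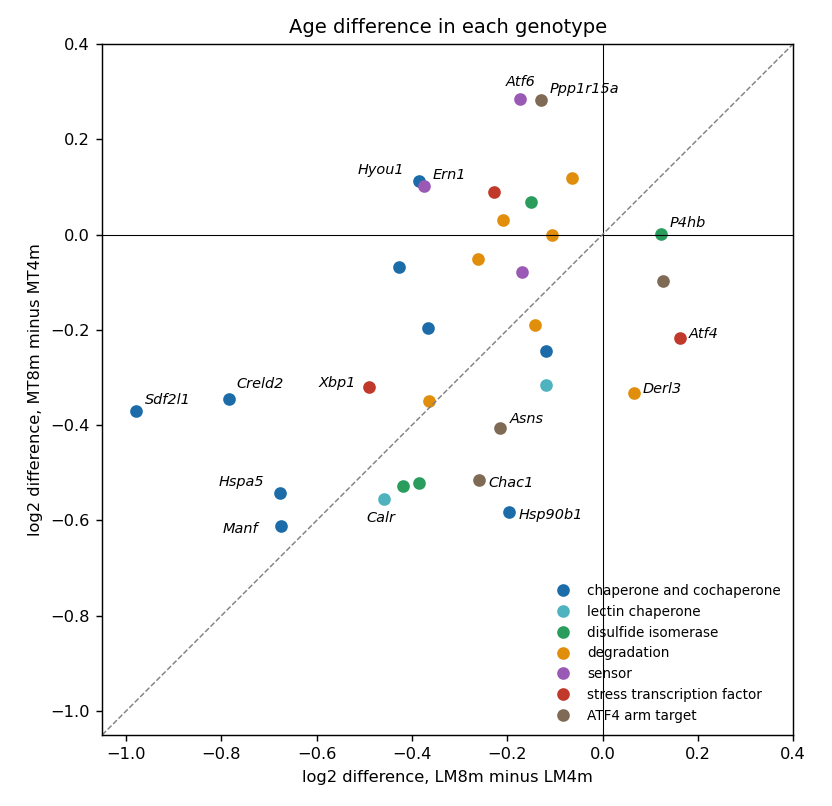
Log2 age difference of each of the 32 genes in LM (horizontal) and in MT (vertical), coloured by role, with the line of equal difference dashed. Hspa5, Manf and Calr lie near the line, Sdf2l1 (-0.98 in LM, -0.37 in MT) lies above it and Hsp90b1 (-0.20 in LM, -0.58 in MT) below it.

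The pituitary hormone genes moved with age on the same arrays. The 7 genes had a median age difference of -1.32, and 4 of 7 were lower at an unadjusted p under 0.05. On MT4m replicate 2, where these hormone genes were as low as at 8 months, 17 of the 32 genes read above all 4 arrays of 8 months, against 18.7% of all genes. The 8 genes whose ages did not overlap are among the 17 by definition, and the other 9 are Hsp90b1, Canx, Pdia3, Pdia6, Herpud1, Eif2ak3, Atf4, Asns and Chac1. The mean of the pituitary genes was then taken as a covariate beside the 4 group means. Its slope came from differences between the 2 arrays of a group, which were largest in MT4m. This mean also went with age, so the parts of age and of these genes cannot be fully told apart. With the covariate, 6 of 32 were lower at an unadjusted p under 0.05 (Hyou1, Sdf2l1, Calr, Syvn1, Asns and Chac1), against 1.37% of all genes, and the median was -0.18. Of the other genes lower without the covariate, Hspa5 (-0.48), Creld2 (-0.54), Manf (-0.36), Pdia6 (-0.31), Xbp1 (-0.24), Dnajb11 (-0.22) and Pdia4 (-0.18) were negative but not lower by that test. The values of Hsp90b1 (-0.04, unadjusted p = 0.806) and Derl2 (0.03, unadjusted p = 0.88) were near 0 with it (limma adjusted p = 1.00 for both). In MT, on the 5 arrays with low pituitary genes (MT4m replicate 2 against MT8m, the LM8m arrays adding to the estimate of spread), 3 of 32 (Atf4, Asns and Chac1) were lower, against 1.22%, 25 of 32 were negative and the median was -0.20. In that comparison the MT4m group is 1 array, whose spread is assumed to be that of the other groups. In LM both arrays of 4 months were high in pituitary genes and both of 8 months low. No such comparison could be made there, and age and these genes cannot be told apart in LM. Without the library labelled MT8m replicate 1, 12 of 32 were lower with age, against 4.47% of all genes, and 0 of 32 higher, against 3.66%, with a median of -0.18.

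Further genes of the same compartment and arms were counted in the same way. Of the 84 measured, 4 were lower with age at an unadjusted p under 0.05, against 3.98% of all genes, and 1 was higher, against 2.49%. The median difference over the 84 was 0.00. Among 19 other folding enzymes, Sil1, a nucleotide exchange factor of Hspa5, was higher (0.34 ± 0.09, unadjusted p = 0.00474), and Erp44 (-0.35 ± 0.16) and Ero1b (-0.24 ± 0.13), which serve thiol oxidation, were not lower by that test. Of 15 genes of translocation and signal peptide cleavage, Sec63, a membrane cochaperone of the translocon, was lower (-0.31 ± 0.12, unadjusted p = 0.0277) and 13 of 15 were negative, with a median of -0.11. Of 15 further degradation genes, 0 were lower or higher, the largest value being that of the ubiquitin-conjugating enzyme Ube2j2 (0.23 ± 0.11). Among 17 other sensors and transcription factors, Mbtps2, the site-2 protease that cleaves Atf6, was lower (-0.32 ± 0.10, unadjusted p = 0.013). Of 18 amino acid and tRNA genes of the ATF4 arm, Cth (-0.66 ± 0.15), which makes cysteine, and Psph (-0.42 ± 0.17), of serine synthesis, were lower (unadjusted p = 0.00209 and 0.0348). Of 15 heat shock genes of the cytosol and mitochondria, which answer to a separate stress pathway, 8 were lower, against 3.98% of all genes. All 15 were negative and the median was -0.22.

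**Figure D5:**
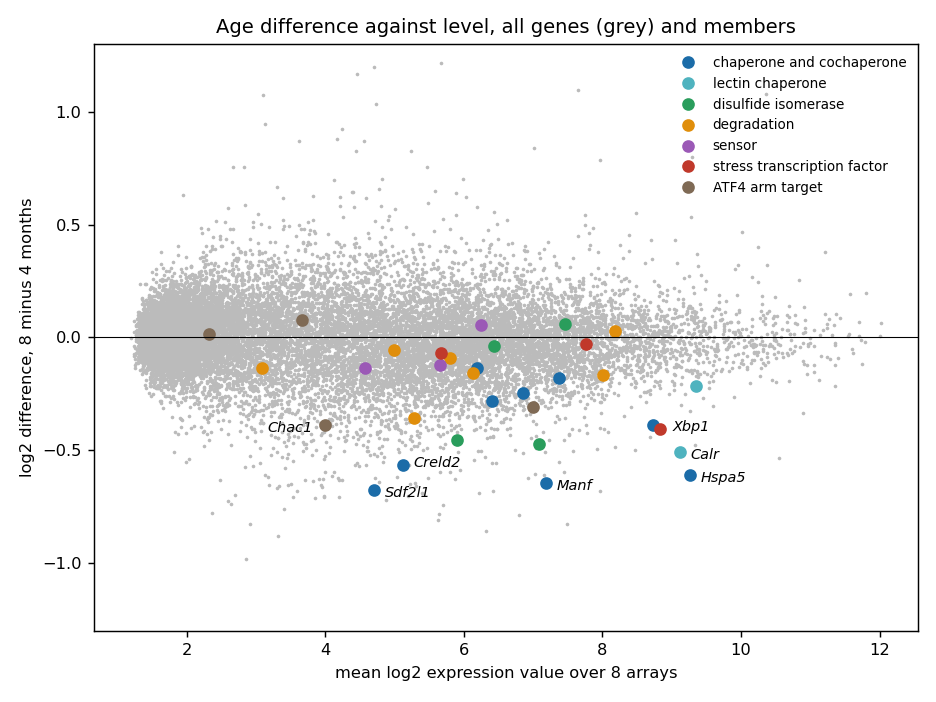
Log2 age difference (8 minus 4 months, averaged over genotypes) against the mean log2 expression value over the 8 arrays, for the 18193 genes (grey) and the 32 genes (coloured by role). The axis is limited to 1.3 in either direction, with 8 genes outside it, and Hspa5, Manf, Calr and Sdf2l1 lie at the lower edge of the cloud at their level.

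Between genotypes the differences were centred near 0. Averaged over ages, the median MT minus LM difference was -0.02, and 2 of 32 (Hspa5 and Ppp1r15a) were lower at an unadjusted p under 0.05, against 4.64% of all genes, and 1 (Atf4) higher, against 2.08%. None of the 32 passed an adjusted p of 0.05, against 0.0989% of all genes. Hspa5 differed by -0.31 ± 0.12 (unadjusted p = 0.034, limma adjusted p = 0.853), with its MT arrays overlapping the LM arrays. Its dimmer probe sets gave smaller differences of -0.16 ± 0.13 and -0.06 ± 0.10. Ppp1r15a read 4.14 and 3.68 in LM4m, 3.38 and 3.33 in MT4m, 3.84 and 3.72 in LM8m, and 3.57 and 3.70 in MT8m, so the genotypes were apart at 4 months and lay close at 8 months. It differed by -0.35 ± 0.12 (1.27-fold lower; unadjusted p = 0.0172, limma adjusted p = 0.836), and by -0.23 without LM4m replicate 1, the highest array and the one with the largest 3′ excess. That array was also the highest of the 8 for Hyou1, Sdf2l1, Creld2, Dnajb9, Calr, Herpud1, Syvn1, Ern1, Xbp1 and Ddit3, and the part of RNA quality in these values was not tested.

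Atf4 read 7.5 and 7.53 in LM4m, 7.74 and 8.34 in MT4m, 7.71 and 7.65 in LM8m, and 7.75 and 7.90 in MT8m. It was the 1 gene of the 32 with all MT arrays above all LM arrays, against 1.28% of all genes, and 0 of 32 had them below, against 2.42%. The difference was 0.33 ± 0.14 (1.26-fold higher; unadjusted p = 0.0372, limma adjusted p = 0.853). Much of it came from MT4m replicate 2, without which it was 0.18, and a second bright Atf4 probe set gave 0.07 ± 0.26. With the pituitary covariate it was 0.12 (unadjusted p = 0.444, limma adjusted p = 0.937).

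At 4 months, Sdf2l1 (-0.34 ± 0.14) and Ppp1r15a (-0.55 ± 0.17) were lower in MT at an unadjusted p under 0.05 (2 of 32, against 4.38% of all genes), and Atf4 (0.52 ± 0.19) was higher (1 of 32, against 1.36%). Of the 9 chaperones 8 had negative values, with a median of -0.33, where 10036 of the 18193 genes were negative, and 1 (Sdf2l1) was lower by that test. The pituitary genes were lower there too, with a median of -1.70. The 9 choroid plexus genes, which differ between genotypes at both ages, also had a median of -1.70. The part of either tissue in these values was not tested. No gene passed an adjusted p of 0.05 (0% of genes). At 8 months, Derl3 (-0.37 ± 0.13) was lower in MT (1 of 32, against 2.25%), 0 of 32 were higher (1.29%), and 0 of 32 passed an adjusted p of 0.05, against 0.022% of all genes. Derl3 was dim, at 3.26 and 3.15 in LM8m and 2.96 and 2.71 in MT8m. Without the library labelled MT8m replicate 1, Calr and Derl3 were lower at 8 months (2 of 32, against 3.74%) and Derl1 was higher (1 of 32, against 4.15%), MT8m being again 1 array whose spread is taken from the other groups. Averaged over ages without it, Hspa5, Calr, Syvn1, Derl3 and Ppp1r15a were lower (5 of 32, against 6.13%), Atf4 was higher (1 of 32, against 3.92%), and 0 passed an adjusted p of 0.05.

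The interaction asks whether the genotype difference itself changed from 4 to 8 months. At an unadjusted p under 0.05 it was positive for Sdf2l1 (0.61 ± 0.20) and Ern1 (0.48 ± 0.21), 2 of 32 against 1.72% of all genes, and negative for 0 of 32, against 0.863%. No gene passed an adjusted p of 0.05 by limma (0% of genes). For Sdf2l1 the MT arrays were the lower ones at 4 months and the higher ones at 8 months. In 3 of the 32 genes, Sdf2l1, Ern1 and Trib3, the arrays of the genotypes were separated in opposite directions at the 2 ages, as in 3.37% of all genes.

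Set beside the promoters shown above, the 9 genes with an ERSE (Hspa5, Hsp90b1, Creld2, Dnajc3, Calr, Canx, Pdia6, Syvn1 and Derl3) had a median age difference of -0.39. All 9 were negative by the brightest probe set, and 5 were lower at an unadjusted p under 0.05, against 3.98% of all genes. The 19 genes with a window and no ERSE had a median of -0.16, and 7 of them were lower, Sdf2l1 (-0.67), Xbp1 (-0.41) and Pdia4 (-0.45) among them. Another 11 genes outside the 32 with the element and a probe set had a median of -0.003, and 1 was lower. The difference between these sets of genes was not tested. A related element, ERSE II (ATTGGNCCACG), was in 2 of the 28 windows (Dnajb11 and Herpud1; 7.14%, against 0.0444% of all genes). The unfolded protein response element TGACGTGG was in 0 of 28 (0.714% of all genes), and TGATGNAA, the form of the Atf4-responsive element searched on both strands like the others, in 4 (Herpud1, Trib3, Asns and Chac1; 14.3%, against 4.51%). Herpud1 held both ERSE II and the latter. These matches describe letters in windows of genes chosen by name, and binding was not measured.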

How the data were processed

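The values deposited by the authors are log2 expression values from RMA, run on the 8 arrays in R with affy, whose version is not given here. They cover 45101 probe sets, of which 64 are controls. Scanner files and detection calls were not used. Values ran from 0.979 to 12.8, and the offset of the scale is unknown. A platform annotation gave 34945 probe sets 1 symbol, 932 several and 9160 none. Symbols were updated through a RefSeq table (GRCm38.p6), which held 34741 of the first kind. The annotation lists no genome build for the probe sets.

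A model of the 4 group means was fitted in R 4.3.3 with lmFit and eBayes of limma 3.58.1 on 45037 probe sets, all 8 arrays sharing 1 estimate of spread (4 residual degrees of freedom). P-values are two-sided, adjusted by Benjamini-Hochberg over all probe sets. The fit was tested on simulated data. Values on every array are printed for Hspa5, Sdf2l1, Manf, each gene with an unadjusted p under 0.05 in an averaged contrast and the largest age difference of each role. Of the further genes, up to 4 a role with the largest age difference could be named. The 32 genes, the lists and the rules were chosen with earlier results of these data known. Titles number the arrays, but a number is not stated to mark a shared animal or batch. Alternatives were leaving out dim probe sets, leaving out each array, cyclic loess, a trended robust prior, the mean of all probe sets, only the groups compared, an additive model and a block on the title number. The pituitary covariate, the 5 arrays with low pituitary genes and crossed numbers were added after the data had been seen.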

Additional observations from a re-analysis of the deposited data

Results flagged for a closer look

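Sdf2l1, Ern1 and Trib3 had arrays of the genotypes separated in opposite directions at the 2 ages. Sdf2l1 was lower in both MT arrays than in both LM arrays at 4 months and higher at 8 months, with an interaction of 0.61 (limma adjusted p = 1). Ern1 showed the same order, with an interaction of 0.48 (limma adjusted p = 1), and the mean of all its probe sets gave 0.03. Trib3, a dim gene, showed the opposite order, read 2.18 and 2.25 in LM4m, 2.54 and 2.26 in MT4m, 2.32 and 2.37 in LM8m, and 2.31 and 2.29 in MT8m, and had an interaction of -0.23 (limma adjusted p = 1). Such a pattern was seen in 614 of the 18193 genes (3.37%).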

How the results depend on the processing

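Across the alternatives, 0 of the 32 genes passed an adjusted p of 0.05 in any contrast. The averaged age difference of Hspa5, Sdf2l1, Manf, Creld2, Calr and Xbp1 was negative in all 17 settings, between -0.78 and -0.24. That of Hsp90b1 came to -0.04, and those of Canx (0.01), Dnajc3 (0.04) and Derl2 (0.03) turned positive, with the pituitary covariate. Pdia3 (up to 0.19), Edem1 (up to 0.17), Atf4, Ddit3, Sel1l, Ern1 and Syvn1, negative in the fit given above, were also positive in some setting. Derl1, Atf6, Trib3 and Ppp1r15a, positive in that fit, were negative in some setting. The count of genes lower with age at an unadjusted p under 0.05 was 13 with all arrays, from 9 (without LM8m replicate 1) to 13 with 1 array left out, and 6 with the pituitary covariate. It was 10 with the mean of all probe sets, against 3.6% of all genes, and Hsp90b1, Pdia6 and Derl2 were then no longer lower. With 1 array left out, the median over the 32 genes was from -0.30 (without LM8m replicate 2) to -0.20 for age in LM, from -0.27 to -0.18 for age in MT, from -0.10 to -0.0199 for genotype at 4 months, from -0.0535 to 0.0982 for genotype at 8 months (the extremes without LM8m replicates 1 and 2), and from -0.0422 to 0.21 for the interaction (without the same arrays). The 8 month genotype median, 0.0028 with all arrays, was also negative without MT8m replicate 2 (-0.0149), with cyclic loess (-0.0104) and with the pituitary covariate (-0.0061). The mean of all probe sets gave -0.14 for age in LM against -0.22, and cyclic loess 0.0306 for the interaction against 0.10. The causes were not tested. With the title number as a replicate block, the averaged age median was -0.17 and 13 genes were lower, as without it, with 0 adjusted calls over all probe sets. Deviations of arrays with the same number correlated at 0.24 in LM and -0.17 in MT. With 2 arrays a group, each genotype gives only 1 such value, and its sign turns if the numbers are swapped. These values cannot show whether a number marks a shared batch, and the numbers were not taken to pair arrays. With the MT numbers crossed, 14 of the 32 genes were lower and 3 probe sets of all passed the adjusted p. Dim genes (Trib3, Derl3, Ppp1r15a) may have compressed differences, which was not measured. Of 43 further probe sets of these genes, 24 had the sign of the brightest one with age, and 14 of 21 among those with a mean above 4.5.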
